A study of Homo sapiens with 6 samples.

Results

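The replication-dependent histone genes encode the histones that package newly copied DNA. They were described here in OSC19SSZR, a human oral squamous cell carcinoma line made resistant to sulfasalazine, a drug that blocks the cystine transporter xCT. Members were the rows of the deposited table whose gene name begins H2AC, H2BC, H3C or H4C followed by a number, or is H1-1 to H1-6. This gave 66 of 61859 genes, namely 6 H1, 16 H2A, 17 H2B, 13 H3 and 14 H4 genes. In GRCh38, 55 of them lie on chromosome 6 and 11 on chromosome 1. The groups were OSC19SSZR cells transfected with FOXA1 siRNA (n = 3) and OSC19SSZR cells transfected with control siRNA (n = 3), both by lipid transfection and both harvested 48 h later for RNA-seq, so the resistant background was shared by all 6 samples. FOXA1 is a pioneer transcription factor of the forkhead family. The labels do not say whether the 3 samples of a group came from separate cultures, so the tests see only how far these samples scatter, and that scatter may be technical.

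Histone proteins are needed in bulk in S phase, and their genes sit in clusters with many near-identical copies. The genes are mostly short and without introns, and the mRNA normally ends in a conserved stem-loop in place of a poly(A) tail. SLBP binds this stem-loop, and the U7 particle with LSM10, LSM11 and ZNF473 guides the cut just after it. NPAT drives transcription of these genes at nuclear histone locus bodies. When DNA synthesis stops, histone mRNAs are rapidly degraded, with ERI1 trimming the stem-loop end. Some of these genes also make polyadenylated mRNAs, mainly in cells that have left the cell cycle. The label stating total RNA names the material extracted, and whether the libraries were then selected for poly(A) tails, or rRNA was removed, is not given in the sources used here.

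The stem-loop was searched for by the histone consensus in annotated transcripts (GENCODE 29, GRCh38), where 62 of the 66 members were found by gene identifier. H2AC18, H2AC19, H3C2 and H3C3 were not found this way and may be there under other identifiers. The stem-loop was found in 25 members. Many of the others are annotated with the coding sequence alone, where no stem-loop could be seen. The 5 forms of the stem-loop are shown because they carry the feature that keeps these mRNAs apart from polyadenylated ones. They are written as DNA, 5′ to 3′, with the stem arms in capitals and the loop in lower case.
13 members (3 H2A, 7 H2B and 3 H3 genes, with H2AC6, H2BC21 and H3C10 among them): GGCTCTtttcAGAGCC
4 members (H2BC4, H2BC5, H2BC7 and H3C8): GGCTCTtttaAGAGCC
4 members (H4C2, H4C5, H4C8 and H4C11): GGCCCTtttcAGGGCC
3 members (H4C9, H4C14 and H4C15): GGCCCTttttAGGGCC
1 member (H2AC11): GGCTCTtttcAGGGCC
The arms pair along their whole length in the first 4 forms. Every H4 form began with GGCCCT, and every form of the H2A, H2B and H3 genes with GGCTCT. The form in H2AC11 joins the left arm of the one kind to the right arm of the other.

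Promoter sequences, from 250 bases before to 50 after the first listed start of each gene (RefSeq, GRCh38.p14), were available for 61 of the 66 members. The 4 below are shown because they belong to members of the same class that behaved differently or to the 2 genes that lead the description: H2BC5 and H4C14 lead it, H2BC11 is an H2B gene whose groups overlapped, and H4C11 is an H4 gene with a larger fold change than H4C14. Capitals mark matches to CCAAT, to TATAAA and to the octamer motif, whose letters are ATTTGCAT, on either strand.
H2BC5 (chr6:26157871-26158170, + strand): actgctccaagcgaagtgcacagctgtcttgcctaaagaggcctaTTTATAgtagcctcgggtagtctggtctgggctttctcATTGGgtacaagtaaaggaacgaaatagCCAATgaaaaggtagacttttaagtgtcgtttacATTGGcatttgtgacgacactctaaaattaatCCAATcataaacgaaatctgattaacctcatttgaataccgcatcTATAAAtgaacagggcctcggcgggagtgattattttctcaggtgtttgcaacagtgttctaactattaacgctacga
H2BC11 (chr6:27132746-27133045, - strand): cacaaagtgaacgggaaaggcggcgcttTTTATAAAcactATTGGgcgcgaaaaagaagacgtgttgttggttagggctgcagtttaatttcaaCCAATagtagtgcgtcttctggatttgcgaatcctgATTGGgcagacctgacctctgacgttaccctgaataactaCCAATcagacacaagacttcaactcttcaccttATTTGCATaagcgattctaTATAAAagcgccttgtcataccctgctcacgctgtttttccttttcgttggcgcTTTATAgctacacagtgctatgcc
H4C14 (chr1:149832407-149832706, + strand): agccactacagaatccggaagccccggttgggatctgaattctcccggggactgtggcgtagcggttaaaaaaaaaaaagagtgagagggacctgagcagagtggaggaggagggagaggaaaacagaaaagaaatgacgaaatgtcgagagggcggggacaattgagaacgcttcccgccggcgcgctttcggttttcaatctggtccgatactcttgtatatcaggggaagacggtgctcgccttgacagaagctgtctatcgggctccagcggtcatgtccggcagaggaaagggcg
H4C11 (chr6:27823842-27824141, + strand): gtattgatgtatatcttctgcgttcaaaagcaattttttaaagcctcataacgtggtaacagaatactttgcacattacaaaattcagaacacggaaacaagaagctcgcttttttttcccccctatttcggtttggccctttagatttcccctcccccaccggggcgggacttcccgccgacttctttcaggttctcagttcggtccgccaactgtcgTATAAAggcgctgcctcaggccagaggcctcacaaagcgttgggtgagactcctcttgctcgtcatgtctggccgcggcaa
The H2BC5 window held TATAAA with its first base at -205 and at -28, counted with the start as 0, and 4 CCAAT matches, but no octamer. The H2BC11 window held TATAAA at -222, -220, -28 and 26, 4 CCAAT matches and an octamer at -47. H4C11 had TATAAA at -31 alone, and H4C14 had a match to none of these motifs. Over the 61 members, TATAAA was found in 41, against 11.95% of all 27305 promoter windows of the same length, and CCAAT in 52, against 35.7%. The octamer, known as the Oct-1 motif of H2B promoters, was found in 26, which were 11 of 15 H2A, 14 of 17 H2B, 1 of 11 H3, 0 of 12 H4 and 0 of 6 H1 windows, against 1.80% of all windows. Where H2A and H2B genes share 1 divergent promoter, their windows overlap and the same motif is counted for both. The H3 window with an octamer is that of H3C4, whose first listed start is the start of H2AC7, so it is the H2AC7 window counted again. The forkhead motif TGTTTAC was found in 2, H2AC1 and H2BC1, against 3.41% of all windows, and neither gene had a read in any sample. A match describes letters in a window and is not a binding site.

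FOXA1 itself had 247, 192 and 189 normalized counts in FOXA1 siRNA cells, against 1477, 1378 and 1459 in control siRNA cells. A normalized count is a gene's read count divided by a size factor of its sample. FOXA1 thus stood at 14.5% of its control level (log2 fold change -2.79 ± 0.09 SE, limma adjusted p = 3.32e-18), which fits the labels of all 6 samples. The libraries held 16510125 to 25732569 reads in genes. The line's epithelial markers EPCAM, KRT5, KRT8, KRT18 and CDH1 were expressed in every sample, the lowest value being 2721 normalized counts for CDH1, while KRT14 was at 16.1 to 77.2. Of 8 markers of leukocytes, endothelium and fibroblasts, 2 passed the filter on low values, CD68 and COL1A1, and the summed level of the 8 was 187 to 215 in FOXA1 siRNA cells, against 256 to 266 in control siRNA cells. COL1A1 was lower (limma adjusted p = 0.00412). CD3E, PECAM1 and COL1A2 were at 0 in 3 or more of the 6 samples, and the part of other cells in the results below was not tested.

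Histone transcripts were fewer after FOXA1 siRNA in the H2A, H2B, H3 and H4 classes. The H1 sums of the groups overlapped, and nearly all of their counts came from H1-2. All 66 members together summed to 3039 ± 134 normalized counts in FOXA1 siRNA cells, against 4541 ± 68.0 in control siRNA cells (SD, n = 3 each), a ratio of 0.669. As a share of all reads in genes, this was 160, 148 and 161 RPM (histone reads scaled to equal library totals) in FOXA1 siRNA cells, against 250, 247 and 253 in control siRNA cells. These totals include near-identical copies, which may hold the same reads counted for both. Without H2AC19, H3C15 and H4C15, the sums were 2747 ± 134 in FOXA1 siRNA cells, against 3987 ± 58.7 in control siRNA cells, a ratio of 0.689. These sums still hold both H4C11 and H4C12, which are near-copies too. The groups were far apart relative to the spread within them. In bulk RNA, fewer cells in S phase and less histone RNA per cell cannot be told apart. Whether the libraries captured histone mRNAs with and without a poly(A) tail alike is not given, and the part of RNA capture was not tested.

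A gene was tested if its mean over the 6 samples was at least 10 normalized counts, which 32 members reached. Of these 32, 19 were lower and 0 higher after FOXA1 siRNA (limma on log2(normalized count + 1), Benjamini-Hochberg adjusted p under 0.05 over all 18460 tested genes). The background was high, since 25.0% of all tested genes were lower and 26.8% were higher. The median log2 fold change was -0.83 over the tested members and 0.0039 over all tested genes. In 21 members the 3 FOXA1 siRNA values lay all below the 3 control values, and in 0 all above, against 28.1% and 29.5% of all tested genes. Of the 10 members with a mean of at least 50, 9 were lower, where 26.4% of all genes at that level were, and of the 22 members with a mean of 10 to 50, 10 were lower, where 20.0% of all genes at that level were. These 10 include H2AC7, H3C14 and H3C15, which reached the filter only through control siRNA cells and so had to differ. Without these 3, 16 of 29 tested members were lower, with a median log2 fold change of -0.76. With equal library totals in place of the authors' size factors, 32.3% of all genes were lower and 19.5% higher, and 21 members were lower and 0 higher. EdgeR's quasi-likelihood test on the recovered reads found 18 members lower (26.0% of all genes), DESeq2 16 (22.5%), and neither found a member higher.

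**Figure D1:**
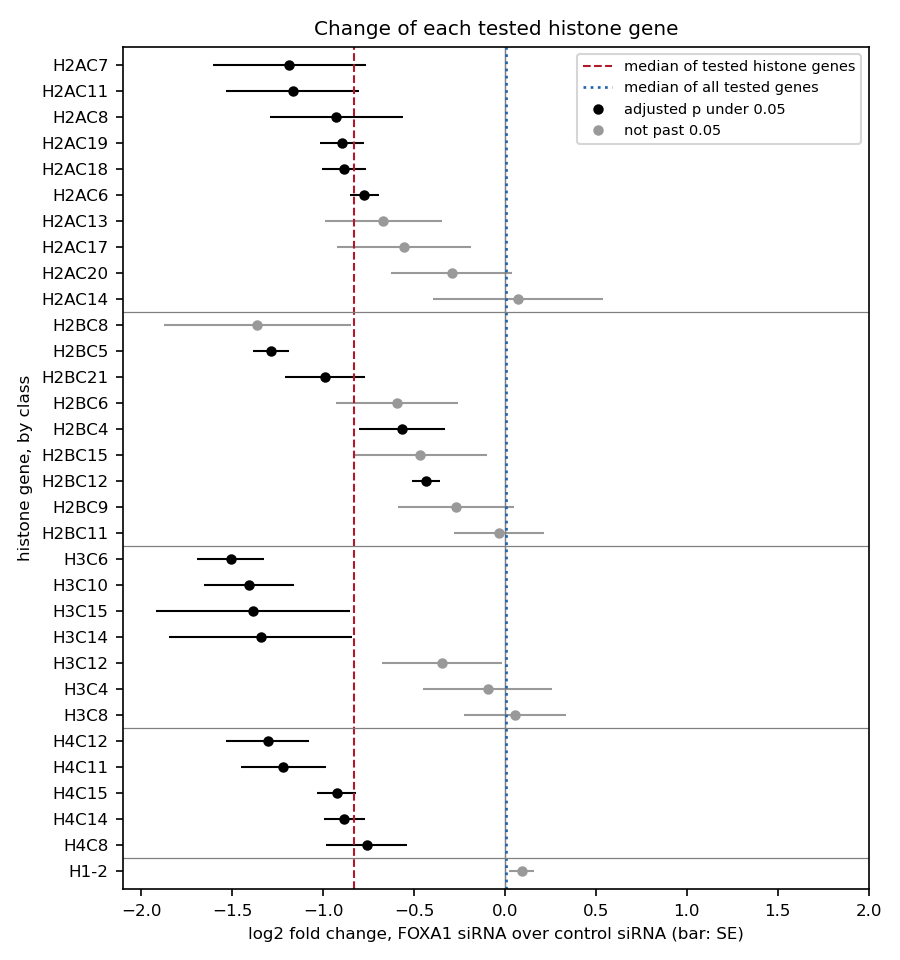
Log2 fold change of each of the 32 tested histone genes, FOXA1 siRNA over control siRNA (x axis), with the SE as a bar and genes grouped by class from H2A at the top to H1 at the bottom. Black points are the 19 genes with an adjusted p under 0.05, all left of 0; the dashed line is the median of the 32 at -0.83 and the dotted line the median of all tested genes at 0.0039.

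By class, all 5 tested H4 genes were lower, as were 6 of 10 tested H2A, 4 of 9 H2B and 4 of 7 H3 genes, while the 1 tested H1 gene did not pass. Of all tested genes, 25.0% were lower. Of the 5 H4 genes, 4 form 2 pairs of near-identical copies, and H2AC18 with H2AC19 and H3C14 with H3C15 are 2 more such pairs. The median log2 fold change was -0.93 for H4, -0.83 for H2A, -0.57 for H2B and -1.34 for H3. H2AC7, H3C14 and H3C15 reached the filter only through control siRNA cells, and without them 5 of 9 H2A genes (median -0.77) and 2 of 5 H3 genes (median -0.35) were lower. The H2A genes summed to 733 ± 17.0 normalized counts in FOXA1 siRNA cells, against 1272 ± 62.4 in control siRNA cells, a ratio of 0.576. For H2B the sums were 817 ± 25.1 in FOXA1 siRNA cells, against 1298 ± 20.2 in control siRNA cells, a ratio of 0.629. H3 summed to 149 ± 20.4 in FOXA1 siRNA cells, against 289 ± 12.4 in control siRNA cells, and H4 to 444 ± 46.0, against 840 ± 71.6, ratios of 0.515 and 0.529. Without the copies H2AC19, H3C15 and H4C15, the ratios were 0.585 for H2A, 0.518 for H3 and 0.530 for H4. H4 then summed to 279 ± 28.3 in FOXA1 siRNA cells, against 525 ± 44.0 in control siRNA cells. These H4 sums still hold both H4C11 and H4C12, which are near-copies too. Differences between classes were not tested.

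**Figure D2:**
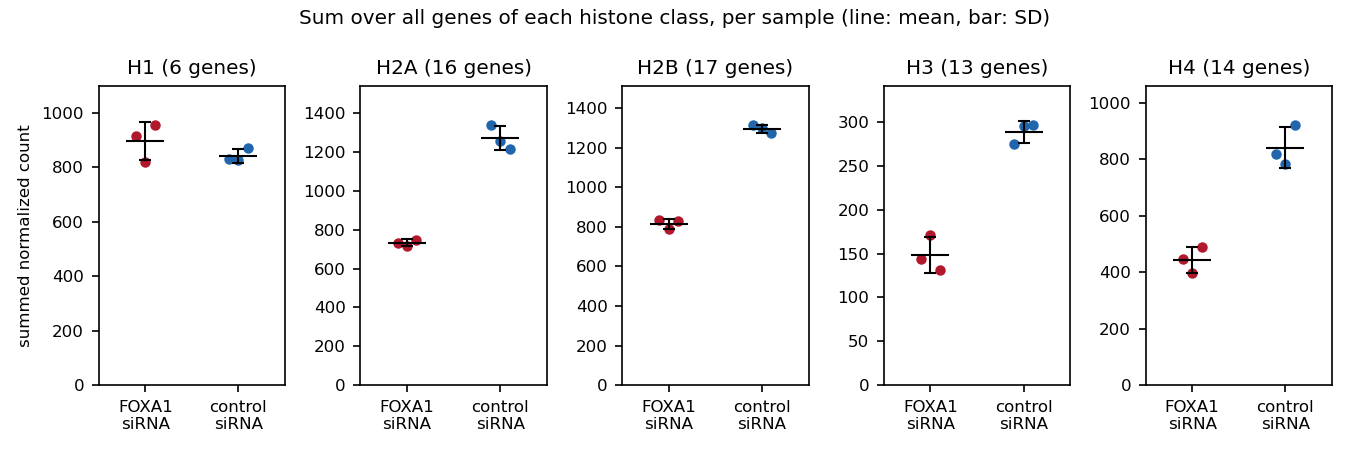
Summed normalized count of all genes of each histone class (y axis, from 0) in each sample, FOXA1 siRNA in red left of control siRNA in blue; the line is the mean and the bar the SD of 3 samples. The groups are apart in H2A, H2B, H3 and H4 and overlap in H1, where the means are 896 and 842. Nearly all of the H1 counts are from H1-2.

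H2BC5, an H2B gene on chromosome 6 (GRCh38 positions 26158121 to 26171349), had 144, 151 and 152 normalized counts in FOXA1 siRNA cells, against 380, 378 and 337 in control siRNA cells. Every FOXA1 siRNA sample was less than 0.5 of every control sample, a log2 fold change of -1.29 ± 0.10 SE with a limma adjusted p of 1.92e-11. Release 29 annotates 2 transcripts of H2BC5: one of 496 bases that stops 39 bases after the stem-loop, and one of 789 bases without a stem-loop. Both have the letters of the poly(A) signal AATAAA in their last 50 bases. Reads of the 2 forms are counted together in the table. The gene also overlaps AL353759.1, annotated on the opposite strand, and LARP1P1, and whether counting used strand is not given in the sources used here. H2BC5 shared 5.36% of its 50-base words with transcripts of other genes, mostly H2BC4. Few reads of its annotated transcripts could thus match another gene as well.

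H4C14, the other leading gene, lies on chromosome 1 (GRCh38 positions 149832657 to 149833052) and encodes histone H4. It had 170, 145 and 181 normalized counts in FOXA1 siRNA cells, against 294, 281 and 343 in control siRNA cells, with no overlap (log2 fold change -0.88 ± 0.11 SE, limma adjusted p = 1.43e-07). Its neighbour H4C15 had 172, 145 and 180 in FOXA1 siRNA cells, against 309, 291 and 345 in control siRNA cells. The 2 genes are copies of each other: 97.5% of the 50-base words of H4C14 occur in another gene, mostly H4C15, and their recovered reads differed by 0 to 16 in a sample, at most 4.92% of the larger. How reads that match both copies were assigned is not given in the sources used here, and the 2 values are not independent. All 4 annotated H4C14 transcripts hold the stem-loop and go on past it, the longest by 1167 bases.

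The 3 other tested H4 genes were lower too. H4C12 had 24.7, 25.0 and 24.9 normalized counts in FOXA1 siRNA cells, against 64.7, 50.4 and 76.4 in control siRNA cells (log2 fold change -1.31 ± 0.23 SE). H4C11 had 22.5, 25.0 and 23.7 in FOXA1 siRNA cells, against 57.1, 47.4 and 66.9 in control siRNA cells (-1.22 ± 0.23 SE). These 2 are also near-copies, differing by 0 to 9 reads in a sample. H4C8, which shares no 50-base word with another gene's transcripts, had 34.3, 31.9 and 53.4 in FOXA1 siRNA cells, against 58.0, 84.7 and 59.6 in control siRNA cells, again with no overlap. The change was -0.76 ± 0.22 SE on the log2 scale with a limma adjusted p of 0.00566, and that adjusted p was 0.0587 without control siRNA replicate 2, the highest of its control samples.

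Among the H2B genes, H2BC12 and H2BC21 were lower along with H2BC5. H2BC12 had 505, 432 and 478 normalized counts in FOXA1 siRNA cells, against 612, 642 and 655 in control siRNA cells (log2 fold change -0.43 ± 0.08 SE, limma adjusted p = 2.48e-05). Of its 50-base words, 74.1% occur elsewhere, chiefly in H2BFS. H2BC21, on chromosome 1, had 36.4, 32.6 and 27.3 in FOXA1 siRNA cells, against 81.8, 55.5 and 58.6 in control siRNA cells (-0.99 ± 0.22 SE, limma adjusted p = 0.000444). H2BC4 was lower at 26.8, 31.9 and 38.0 in FOXA1 siRNA cells, against 39.0, 47.4 and 58.6 in control siRNA cells, but stood close to the threshold (limma adjusted p = 0.046). Its limma adjusted p was 0.155 without FOXA1 siRNA replicate 1, 0.0814 without FOXA1 siRNA replicate 2, 0.0893 without control siRNA replicate 2 and 0.212 without control siRNA replicate 3. H2BC8 shows the limit of 3 samples: it had 17.2, 6.07 and 35.6 in FOXA1 siRNA cells, against 46.6, 36.3 and 43.9 in control siRNA cells. The groups did not overlap, the FOXA1 siRNA values spread widely, and the log2 fold change of -1.36 ± 0.52 SE missed the threshold (limma adjusted p = 0.0524, edgeR adjusted p = 0.0116). Without FOXA1 siRNA replicate 2 or 3 it passed (limma adjusted p = 0.0438 and 5.92e-05). The remaining H2B genes tested, H2BC6, H2BC15, H2BC9 and H2BC11, had log2 fold changes of -0.60, -0.47, -0.27 and -0.03 and did not pass, H2BC9 passing at -0.71 without control siRNA replicate 3 (limma adjusted p = 0.0409). H2BC11, whose promoter is printed above, had 28.9, 39.5 and 29.7 in FOXA1 siRNA cells, against 37.1, 29.3 and 33.5 in control siRNA cells, fully mixed between the groups.

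In the H2A class, H2AC6 had 406, 355 and 422 normalized counts in FOXA1 siRNA cells, against 737, 637 and 651 in control siRNA cells (log2 fold change -0.77 ± 0.08 SE, limma adjusted p = 7.15e-09). H2AC6 shares 0.421% of its words with other genes, and its annotated transcripts run up to 1128 bases past the stem-loop. H2AC18 had 116, 133 and 111 in FOXA1 siRNA cells, against 227, 233 and 207 in control siRNA cells (-0.89 ± 0.12 SE). Its copy H2AC19 differed from it by 0 to 3 reads in a sample and had a log2 fold change of -0.90. H2AC11, H2AC8 and H2AC7 were lower at small counts. H2AC11 had 6.43, 14.4 and 9.49 in FOXA1 siRNA cells, against 24.7, 23.2 and 20.9 in control siRNA cells (-1.17 ± 0.37 SE, limma adjusted p = 0.00884). H2AC7 and H2AC8 had log2 fold changes of -1.19 and -0.93 (limma adjusted p = 0.0202 and 0.0347). The limma adjusted p of H2AC7 was 0.0611 without FOXA1 siRNA replicate 1, 0.142 without control siRNA replicate 2 and 0.0697 without control siRNA replicate 3. For H2AC8 it was 0.186 without FOXA1 siRNA replicate 2, 0.101 without control siRNA replicate 1 and 0.12 without control siRNA replicate 2. Of the 50-base words of H2AC7, 98.0% occur elsewhere, chiefly in AL031777.3, which is annotated over it. The other H2A genes tested, H2AC13, H2AC17, H2AC20 and H2AC14, had log2 fold changes of -0.67, -0.55, -0.29 and 0.07 and did not pass, H2AC13 passing at -0.86 without FOXA1 siRNA replicate 3 (limma adjusted p = 0.0438).

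The H3 class was the smallest by count and held the lowest fold change. H3C6 had 35.4, 41.0 and 32.0 normalized counts in FOXA1 siRNA cells, against 106, 93.8 and 114 in control siRNA cells, with a wide gap between the groups (log2 fold change -1.51 ± 0.19 SE, limma adjusted p = 1.03e-07). No stem-loop was found in either annotated H3C6 transcript, and the longer, of 2679 bases, has AATAAA in its last 50 bases. H3C10 had 19.3, 21.2 and 23.7 in FOXA1 siRNA cells, against 51.4, 78.7 and 49.2 in control siRNA cells (-1.41 ± 0.25 SE, limma adjusted p = 2.29e-05). The copies H3C14 and H3C15 passed at low and uneven counts: H3C14 had 3.22, 15.9 and 3.56 in FOXA1 siRNA cells, against 10.5, 20.2 and 20.9 in control siRNA cells (-1.34 ± 0.50 SE, limma adjusted p = 0.0277). FOXA1 siRNA replicate 2 lay inside the control range for both. Without FOXA1 siRNA replicate 1 or 3, or control siRNA replicate 2 or 3, the limma adjusted p of H3C14 was 0.102 to 0.107 and that of H3C15 0.0949 to 0.148, and with edgeR they were 0.0995 and 0.138. H3C14 also runs antisense to H4C14 in the annotation. H3C12, H3C4 and H3C8 had log2 fold changes of -0.35, -0.10 and 0.06 and did not pass, and the log2 fold change of H3C8 was -0.038 with equal library totals. Of the 50-base words of H3C4, 100% occur in AL031777.3, which is annotated over it, and its RefSeq span covers H2AC7.

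Linker histones of the H1 class bind the DNA between nucleosomes. H1-2, the 1 tested H1 gene, had 900, 807 and 949 normalized counts in FOXA1 siRNA cells, against 819, 820 and 849 in control siRNA cells. The groups overlapped, and the log2 fold change of 0.09 ± 0.07 SE did not pass (limma adjusted p = 0.27); with equal library totals it was -0.0066. H1-2 shared no 50-base word with other genes, and its single annotated transcript, of 642 bases, ends at the stop codon, so its mRNA end could not be read from the annotation. All 6 H1 genes summed to 896 ± 69.0 in FOXA1 siRNA cells, against 842 ± 25.6 in control siRNA cells. H1-2 made up 886 and 829 of these.

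**Figure D3:**
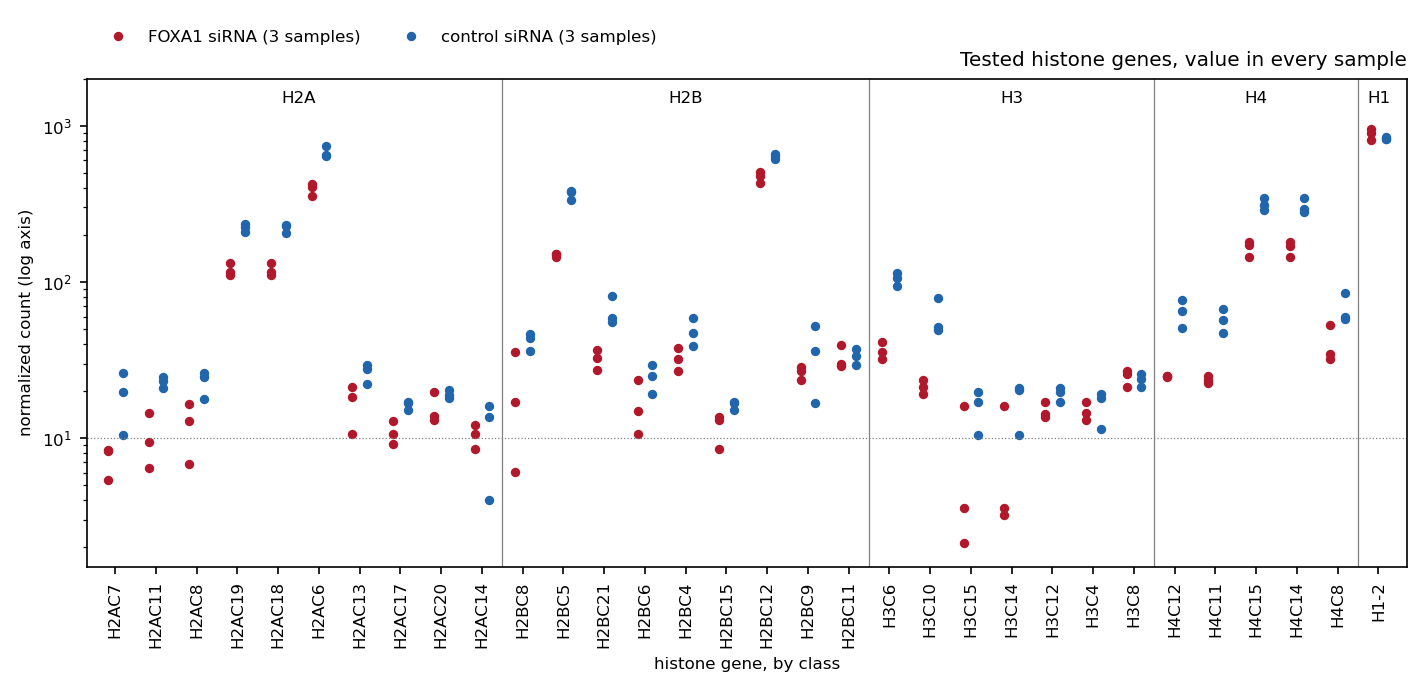
Normalized count (log y axis) of the 32 tested histone genes in every sample, FOXA1 siRNA in red left of control siRNA in blue, ordered by class and then by fold change. The dotted line is the filter of 10, read as a mean over 6 samples; genes such as H2BC5 and H3C6 show a gap between the groups, H2BC11 and H3C8 are mixed, and H1-2 lies above 800 in both.

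The 34 members that did not reach the filter held few reads. Together they summed to 98.4 ± 14.6 normalized counts in FOXA1 siRNA cells, against 122 ± 11.4 in control siRNA cells. The highest of them were H2BC18, with 7.63 ± 4.79 in FOXA1 siRNA cells against 12.1 ± 2.57 in control siRNA cells, H3C3, with 5.27 ± 2.62 against 14.3 ± 3.03, and H2BC17, with 7.26 ± 1.23 against 6.98 ± 2.96 (SD, n = 3 each). H1-6, H2AC1, H2BC1, H4C6 and H4C7 had 0 reads in every sample, which allows up to 0.117 to 0.182 RPM in a library (3 reads of its total, counting error only). H1-6, H2AC1 and H2BC1 are known as histones of the male germ line. Because H2AC7, H3C14 and H3C15 reached the filter only through control siRNA cells, with means under 10 in FOXA1 siRNA cells, they had to differ. Among the 29 members with a mean of at least 10 in FOXA1 siRNA cells as well, 16 were lower and 0 higher. Of all tested genes, 25.0% were lower and 26.8% higher.

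Copies and transcript ends bear on how the counts are read. The 4 copy pairs H2AC18 and H2AC19, H3C14 and H3C15, H4C11 and H4C12, and H4C14 and H4C15 make up 8 of the 19 lower genes. With 1 gene of each pair kept, 15 of 28 tested members were lower and 0 higher, and among the 14 that share under 10% of their 50-base words with other genes, 9 were lower and 0 higher. On chromosome 1, where 3 of the pairs lie, 7 of 8 tested members were lower, and on chromosome 6, 12 of 24. Of the 14 tested members with a transcript annotated 200 bases or more past the stem-loop, 9 were lower. Of the 5 with a stem-loop and a shorter end, 4 were lower, and of the 11 with annotated transcripts but no stem-loop in them, 4. In 8 of these 11 the annotation holds only the coding sequence from start to stop codon, so a missing stem-loop there says nothing of the mRNA. Of all tested genes, 25.0% were lower, and 4 of 11 is near that share. These groups of genes are small and were not compared by a test. In release 29, another gene is annotated over 11 of the 30 tested members found there by gene identifier, 6 of them lower. By their RefSeq spans, H2AC19 also lies within H4C15 and H2AC7 within H3C4, and H2BC12 spans H4C9.

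In the authors' deposited table, which has its own fold changes and p-values, 47 members had an adjusted p, and 14 of these were lower and 0 higher at 0.05, where 17.6% of all genes with an adjusted p were lower and 19.4% higher. Of the 14, 13 were also lower in limma, and the other was H2BC8, with an adjusted p of 0.0368 in the authors' deposited table. H2AC11, H2AC7, H2AC8, H2BC4, H3C14 and H3C15 were lower in limma but not there (authors' adjusted p = 0.0658 to 0.25). For H2BC5 the authors' deposited table gives a log2 fold change of -1.30 and for H4C14 -0.89.

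Of 29 genes that act in making, processing and degrading histone mRNA, 0 were lower and 14 were higher, with a median log2 fold change of 0.20, where 26.8% of all tested genes were higher. SLBP, the stem-loop binding protein, had 1382, 1452 and 1306 normalized counts in FOXA1 siRNA cells, against 817, 898 and 837 in control siRNA cells (log2 fold change 0.70 ± 0.06 SE, limma adjusted p = 3.16e-10). ERI1, the exonuclease of the stem-loop end, had 907, 883 and 1045 in FOXA1 siRNA cells, against 588, 556 and 532 in control siRNA cells (0.75 ± 0.07 SE). Neither gene overlapped between the groups. LSM10 of the U7 particle and NPAT were higher by 0.32 ± 0.11 and 0.24 ± 0.08 (limma adjusted p = 0.0136 and 0.0154). CASP8AP2, a partner of NPAT in histone locus bodies, ZNF473 and LSM11 had log2 fold changes of 0.20, 0.20 and 0.08 and did not pass. With equal library totals, 3 of the 29 were lower and 8 higher, where 19.5% of all genes were higher, so that the count of higher genes was near that share, and the changes of LSM10 and NPAT no longer passed (limma adjusted p = 0.0831 and 0.146).

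Genes of DNA replication and the G1/S transition were higher. Of 47, 45 were higher and 1 lower, where 26.8% of all tested genes were higher and 25.0% lower. The median log2 fold change of the 47 was 0.75. With equal library totals, 44 were higher and 1 lower, where 19.5% of all genes were higher and 32.3% lower. CDK2, the kinase that drives entry into S phase, had 904, 905 and 913 normalized counts in FOXA1 siRNA cells, against 222, 251 and 255 in control siRNA cells (log2 fold change 1.90 ± 0.08 SE). GINS2, part of the replicative helicase, was higher by 1.44 ± 0.05, and E2F3, a transcription factor of the cell cycle, was lower at -0.24 ± 0.10 (limma adjusted p = 0.0346). Histone chaperones were mostly higher too, 17 of 25, with 2 lower, and with equal library totals 16 were higher and 3 lower. ASF1B and CHAF1B, which bring new H3 and H4 to replicating DNA, were higher by 1.00 ± 0.08 and 0.89 ± 0.09, while ASF1A was lower at -0.53 ± 0.07 and ANP32E, a chaperone of H2A.Z, at -0.29 ± 0.05.

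Histone variants, whose genes mostly lie outside the clusters and make polyadenylated mRNA, went in both directions. Of 12 tested, 4 were lower and 5 higher, with a median of -0.02, near the 25.0% and 26.8% of all tested genes. H2AZ1, the gene of H2A.Z, had 6520, 7194 and 7742 normalized counts in FOXA1 siRNA cells, against 3774, 3960 and 3618 in control siRNA cells (log2 fold change 0.92 ± 0.06 SE). CENPA, the H3 variant of centromeres, was higher by 0.52 ± 0.07. H3-3B, 1 of the genes of H3.3, had 5414, 5693 and 5672 in FOXA1 siRNA cells, against 10993, 10711 and 10686 in control siRNA cells (-0.95 ± 0.04 SE), and MACROH2A2 was lower at -0.62 ± 0.13.

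**Figure D4:**
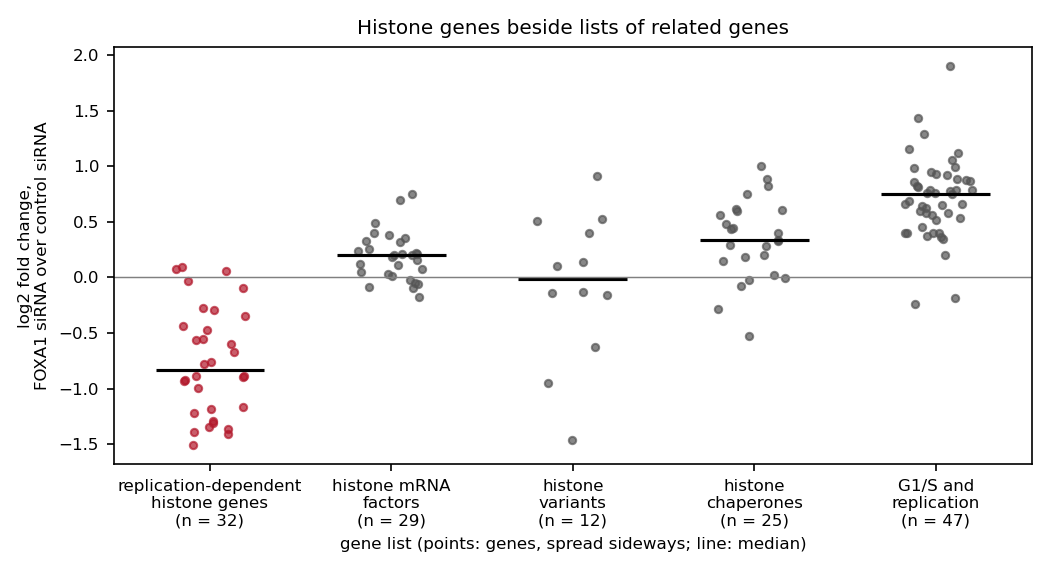
Log2 fold change, FOXA1 siRNA over control siRNA (y axis), of the tested genes in 5 lists, with 1 point per gene and the list's median as a line. The histone genes have their median at -0.83, histone mRNA factors at 0.20, histone variants at -0.02, histone chaperones at 0.33 and genes of G1/S and replication at 0.75.

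Other RNAs without a regular poly(A) tail were listed beside the histone genes. Of 13 listed, 4 passed the filter on low values. RN7SL1, an RNA of the signal recognition particle, had 869, 1099 and 1063 normalized counts in FOXA1 siRNA cells, against 765, 932 and 858 in control siRNA cells, a rise of 0.24 ± 0.09 on the log2 scale (limma adjusted p = 0.0287) that did not pass with equal library totals (limma adjusted p = 0.17). RN7SL2 and RN7SK had log2 fold changes of 0.16 and 0.31 and did not pass. MALAT1, whose end is a triple helix, was lower at 3626, 3834 and 3314 in FOXA1 siRNA cells, against 4807, 5368 and 5158 in control siRNA cells (-0.51 ± 0.05 SE). The summed level of the list, most of it MALAT1, was 6092 to 7020 in FOXA1 siRNA cells, against 7266 to 8134 in control siRNA cells, and the part of RNA capture in the histone result was not tested.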

How the data were processed

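RNA from 6 samples was sequenced from NEBNext Ultra RNA libraries, per the labels' protocols. The submitters' processing notes name HISAT2, DESeq2, GRCh38 and GRCm38, with no versions or roles. The deposited signal is a gene count divided by a sample's size factor, per the file headers, and the deposited table adds the authors' log2 fold change, a test score and raw and adjusted p-values. Left out were 3 malformed lines of 61862. The deposited counts were recoverable: 100% of values were whole reads within 0.01, with size factors of 0.843 to 1.32. Replicates differed beyond sampling noise (chi-square per gene 2.43 to 4.79).

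Groups came from sample titles. Log2(normalized count + 1) was tested with limma 3.58.1 (trend and robust options, R 4.3.3) on 18460 genes with a mean of at least 10. EdgeR 4.0.16 (quasi-likelihood) and DESeq2 1.42.0 were run on recovered reads. Members and lists were chosen with earlier results of these data known. Named genes were FOXA1, every tested member, the 3 highest untested ones, and in each list set genes and the largest changes at a mean of at least 50. Members at 0 reads, members named with a stem-loop form and cell type markers at 0 were named outside this rule, after their values were seen. In simulated counts for this comparison, with 18278 genes tested, limma called 20 of 67 genes changed 2-fold at a mean of 10 to 50. It also called 55 of 66 changed 4-fold, and 11 unchanged ones. In a second draw it called 66 of 67 genes changed 2-fold at a mean of at least 50. Both draws changed far fewer genes than were called in the data, so an adjusted p under 0.05 was harder to reach there. Same-numbered samples did not deviate together (r of -0.010, 0.011 and -0.011), so numbers were not used as pairs. Alternatives covered pseudocount, filter, scaling, test, threshold, copies and left-out samples.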

Additional observations from a re-analysis of the deposited data

How the results depend on the processing

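No member was called higher under any alternative run, and FOXA1 stayed lower in all of them (-2.91 to -2.72). The count of 19 lower members became 9 of 10 with a mean of at least 50 and 9 of 14 under 10% shared words, in both cases because fewer members were tested; with one of each of the 4 copy pairs it was 15 of 28. With 3 of the pairs summed (all but H4C11 and H4C12) it was 15 of 29, the sum of H3C14 and H3C15 no longer passing (limma adjusted p = 0.0578). Quantile normalization and a threshold of 0.01 each gave 14, equal library totals 21, and leaving out 1 sample 13 to 19: 13 without control siRNA replicate 2, 15 without FOXA1 siRNA replicate 1 and 16 without control siRNA replicate 3. Of all tested genes, 25.0% were lower in the main run and 32.3% with equal library totals. For quantile normalization, the threshold of 0.01 and left-out samples that share is not given here, so their counts are not set against all genes. The replicate block, with numbers that do not pair the samples, gave 20 lower members and 9332 genes called in place of 9571. The median of -0.83 became -0.75 with a pseudocount of 5, -0.75 with quantile normalization, -0.93 with equal library totals, -0.71 with one of each pair, and -0.55 without the filter, where 61 members entered; over left-out samples it ran from -0.85 to -0.72. Calls held in every alternative for 13 of the 19 lower members. They were lost in some for H2AC7, H2AC8, H2BC4, H3C14, H3C15 and H4C8, and H2BC8 was called in 9; the cause was not tested. Among members that did not pass, the sign turned for H1-2 (-0.0066), H2AC14 (-0.015) and H3C8 (-0.038) with equal library totals, for H2BC11 (0.18) and H3C4 (0.14) with quantile normalization, and for H2AC14 with edgeR (-0.11) and DESeq2 (-0.11). With 1 sample left out it turned for H2BC11 (-0.17 to 0.047), H3C8 (-0.018 to 0.15), H2AC14 (-0.48 to 0.41), H2BC9 (-0.71 to 0.079) and H3C4 (-0.31 to 0.028). The alternatives keeping 1 copy of a pair, low shared words and a mean of at least 10 in FOXA1 siRNA cells were chosen after seeing the data. In simulated counts with far fewer changed genes than were called here, limma missed most 2-fold changes at means of 10 to 50. How many it misses in these data was not measured, and a member that did not pass is not shown to be unchanged.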
